A study of Mus musculus with 39 samples.

Results

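Expression of 8 genes of cholesterol synthesis was followed in the subcutaneous fat of C57BL/6J mice. The genes are Hmgcs1, Idi1, Fdps, Fdft1, Sqle, Lss, Cyp51 and Insig1, taken by gene name from the 29411 gene names of the array, on which they have 15 of 40628 probes. Of these genes, 7 code for enzymes and Insig1 codes for a regulator, so no gene of cholesterol uptake is among them, and uptake genes are given only for comparison. All 8 were well above background on enough arrays to be tested.

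Weaned mice were fed from 3-4 weeks of age and RNA was hybridised to 39 1-colour Agilent arrays. The low-fat control diet (LFC) has 10 arrays and the high-fat, high-sucrose diet (HFC) has 11. The other 18 arrays come from mice on that high-fat diet with KAL-1, an aqueous botanical formulation, at 5 µg (HF5), 20 µg (HF20) or 75 µg (HF75), 6 arrays each. LFC and HFC share 10 time points, of which Day 6, Day 10, Day 14 and Week 0 are called early here and Week 3 to Week 18, in steps of 3 weeks, late. The KAL-1 diets have only the 6 late time points, and HFC also has Day 1. There was 1 array per diet and time point, so a difference at 1 time point has no replicate check. The errors below describe how diet differences varied between time points, with a spread shared by all diets of a fit. The difference of a single dose can therefore vary more than its error tells. Whether the RNA on an array was pooled over mice is not given, and n is the number of arrays.

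Cholesterol is built from acetyl-CoA through mevalonate, the isoprenoid diphosphates, squalene and lanosterol. When sterols in the endoplasmic reticulum are low, the transcription factor SREBP-2 is carried to the Golgi, cleaved and sent to the nucleus, where it switches on most genes of the pathway together, and the related SREBP-1c acts mainly on fatty acid synthesis. INSIG proteins hold the SREBP escort protein SCAP in the endoplasmic reticulum when sterols are plentiful, and Insig1 is itself an SREBP target. Fat tissue makes only a modest part of the body's cholesterol but stores a large pool of it.

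All levels are log2 values relative to the 75th percentile of the array, so that 0 is the signal of that percentile and a step of 1 is a doubling. The share of spots well above background was between 49.3% and 87.8% on the 39 arrays. It was highest on the HF20 array of Week 15, which had 4936 outlier spots, against a median of 42 over the arrays. All 8 mature adipocyte markers were well above background in each diet, and the mean level of that list lay between 1.77 and 5.78. The mean of 10 skeletal muscle genes ranged from -4.16 to 7.42, that of 8 immediate early genes from -0.79 to 5.57, that of 8 lymphocyte genes from -5.21 to 2.16 and that of 8 macrophage genes from -1.52 to 3.27. The arrays of the Week 12 HF5 and HF20 samples matched each other's column in the deposited ratio table (r = 0.999 against 0.665 and 0.664 with their own), so these labels may be exchanged. The title of the LFC array of Week 12 carries no week, and its time point comes from another label.

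The upstream sequences of 3 of the genes are shown because the levels of the 8 genes correlated over arrays. They belong to the first enzyme of the set, the enzyme gene that correlated best with Sqle over arrays, and the regulator. Shown are the 250 bases before the RefSeq start of each gene in build GRCm38, 5′ to 3′ on the gene's strand, with capitals at matches to the SREBP site TCACNCCAC and to the CCAAT box CCAAT, which binds NF-Y, on either strand.
Hmgcs1 (chr13:119690101-119690350, + strand): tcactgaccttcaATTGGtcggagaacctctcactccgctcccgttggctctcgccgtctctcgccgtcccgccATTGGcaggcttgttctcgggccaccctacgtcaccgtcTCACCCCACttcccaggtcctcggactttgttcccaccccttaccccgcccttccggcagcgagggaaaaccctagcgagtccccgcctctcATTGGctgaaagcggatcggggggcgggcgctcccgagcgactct
Cyp51 (chr5:4104698-4104947, - strand): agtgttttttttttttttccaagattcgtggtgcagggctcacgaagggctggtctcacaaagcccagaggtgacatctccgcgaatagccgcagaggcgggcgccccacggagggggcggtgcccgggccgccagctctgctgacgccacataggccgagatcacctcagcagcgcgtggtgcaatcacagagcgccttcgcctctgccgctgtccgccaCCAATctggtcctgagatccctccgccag
Insig1 (chr5:28071162-28071411, + strand): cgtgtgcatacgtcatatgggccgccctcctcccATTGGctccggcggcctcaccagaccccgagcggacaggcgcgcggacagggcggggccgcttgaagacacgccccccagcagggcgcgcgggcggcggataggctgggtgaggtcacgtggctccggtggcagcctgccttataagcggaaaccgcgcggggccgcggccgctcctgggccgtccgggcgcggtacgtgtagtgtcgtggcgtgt
The promoter table held 5 of the 8 genes: Hmgcs1, Idi1, Lss, Cyp51 and Insig1. A CCAAT box was present upstream of all 5, against 33.8% of 32851 promoters, and so was a GC box (GGGCGG, either strand), against 32.7%. The SREBP site was found upstream of 1 of the 5, Hmgcs1, against 1.05% of promoters. These are matches of letters only.

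Hmgcs1 codes for the cytosolic HMG-CoA synthase, which acts early in the mevalonate pathway. In LFC its lowest level was 1.53, its median 3.35 and its highest 4.90. In HFC these were 2.27, 3.33 and 5.30, and in HF5 2.17, 2.74 and 3.56. In HF20 they were 2.59, 2.99 and 3.11, and in HF75 1.42, 2.70 and 3.31. Over Week 3 to Week 18, the only time points of the KAL-1 diets, the median was 3.10 in LFC and 3.37 in HFC. The 5 diets overlapped, and the highest level of all 39 arrays was that of HFC at Week 3, followed by LFC at Day 6. Hmgcs1 has a second probe, dimmer and with r = 0.727 to the first over arrays.

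Sqle codes for squalene epoxidase, the first oxygen-requiring step. In LFC its lowest, median and highest levels were -1.73, -0.10 and 1.76, and in HFC -1.03, -0.17 and 0.69. In HF5 they were -1.34, -0.70 and 0.04, and in HF20 -2.19, -0.76 and 0.38. In HF75 they were -2.19, -0.97 and -0.53. Over Week 3 to Week 18, the only time points of the KAL-1 diets, the median was -0.47 in LFC and -0.17 in HFC. The highest HF75 level was below the highest of each other diet, while HF75 levels overlapped those of LFC and HFC.

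Cyp51 codes for lanosterol 14α-demethylase, the cytochrome P450 of the pathway. In LFC its lowest, median and highest levels were -3.39, -2.51 and 0.49, and in HFC -4.12, -2.90 and -1.09. In HF5 they were -4.02, -3.44 and -2.72, and in HF20 -4.48, -3.68 and -2.50. In HF75 they were -5.76, -3.60 and -3.19. Over Week 3 to Week 18, the only time points of the KAL-1 diets, the median was -3.06 in LFC and -3.02 in HFC. Cyp51 was not well above background on the 2 arrays with its lowest levels, HF75 at Week 3 and HF20 at Week 12, so those levels are uncertain.

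For each of the other 5 genes the highest array was LFC at Day 6 or Week 12. Lss, which codes for lanosterol synthase and closes the sterol rings, had the widest range, from -5.10 in HF75 at Week 3 (not well above background) to 1.48 in LFC at Day 6. Fdps, which codes for farnesyl diphosphate synthase, ranged from -1.38 in HF5 at Week 15 to 3.65 in LFC at Day 6. Fdft1, which codes for squalene synthase, ranged from -1.99 in HF5 at Week 3 to 2.26 in LFC at Day 6. The isomerase gene Idi1 ranged from -0.12 in HF75 at Week 6 to 2.91 in LFC at Week 12, and Insig1 from -3.85 in HF75 at Week 3 (not well above background) to 1.82 in LFC at Week 12. The Insig1 spot was marked as an outlier on the HF20 array of Week 15 and left out there, so HF20 has 5 values for this gene. The second Fdft1 probe, which was much dimmer, ran against the first over arrays (r = -0.480), while the further probes of the other genes had r between 0.706 and 0.919 with the probe used.

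**Figure D1:**
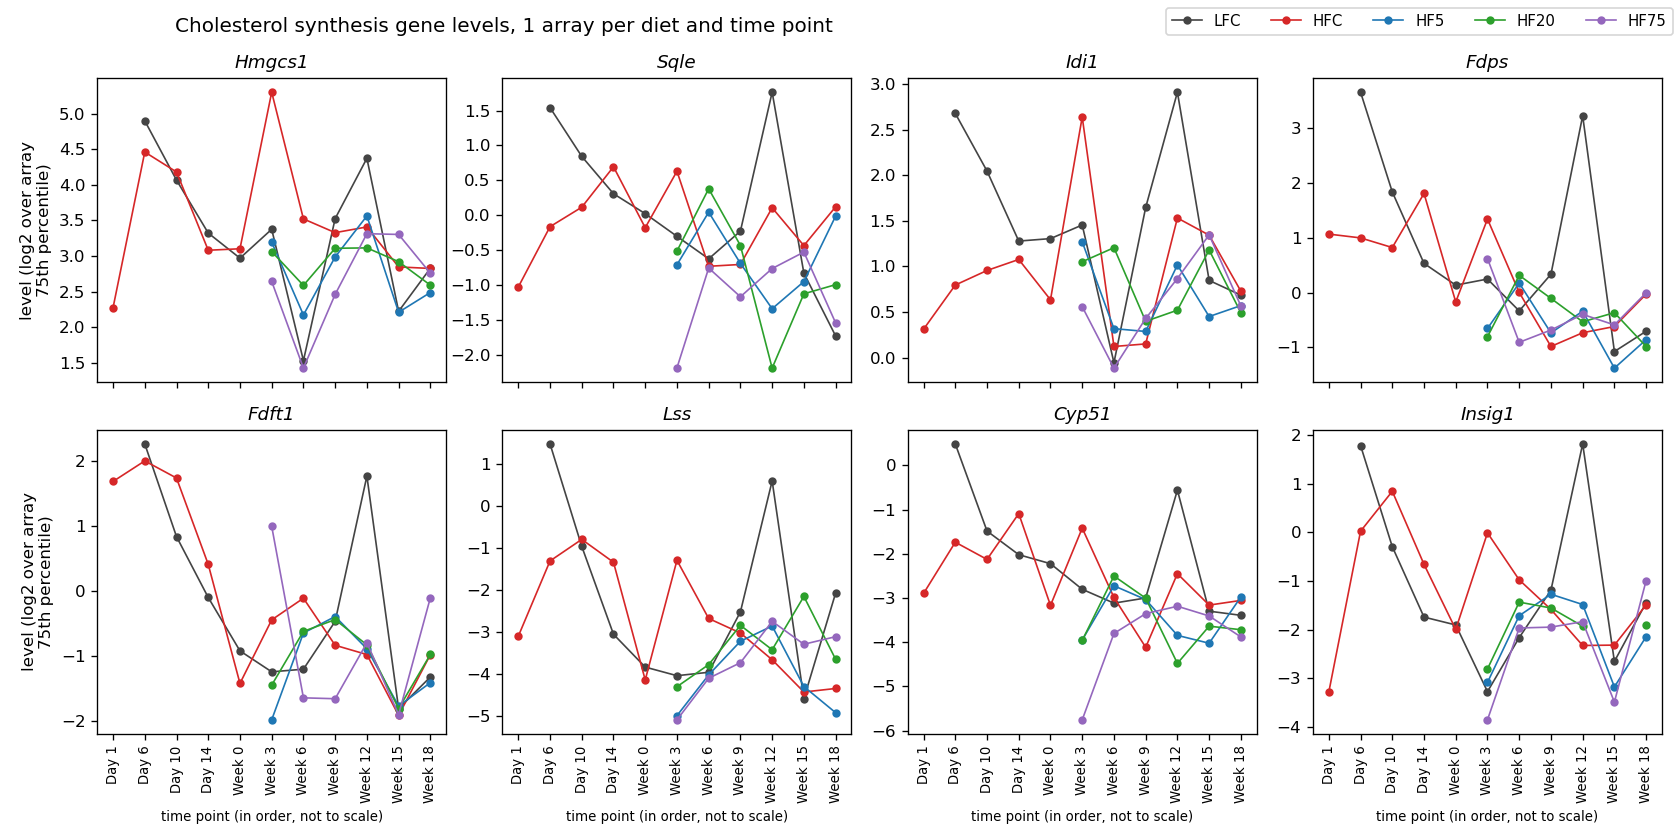
Level of each of the 8 genes (log2 over the array's 75th percentile, vertical axis) by time point (horizontal axis), with 1 point per array and 1 colour per diet. LFC at Day 6 and Week 12 stands above the other LFC arrays in every panel, and HFC at Week 3 reaches 5.30 for Hmgcs1.

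Most of the spread over the 39 arrays came from a few arrays on which the genes were high together. The level of each gene was centred on its mean over arrays and the 8 centred levels were averaged. This average was 2.91 in LFC at Day 6 and 2.54 in LFC at Week 12, against 1.42 for the next array, LFC at Day 10. LFC at Day 6 ranked first or second of 39 for all 8 genes, and LFC at Week 12 for 6 of them, the exceptions being Fdft1 (rank 3) and Hmgcs1 (rank 4). HFC at Week 3 (1.40), Day 10 (1.27), Day 6 (1.19) and Day 14 (1.05) followed. The highest value of a KAL-1 array was 0.07, in HF20 at Week 6, and the lowest averages were those of HF5 at Week 15 (-1.06), HF75 at Week 3 (-0.95) and HF75 at Week 6 (-0.93).

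Other gene groups moved with these arrays. The immediate early genes, which respond within minutes to handling and stress, had a mean level of -0.70 in LFC at Day 6 and -0.65 in LFC at Week 12, against a median of 4.61 over the LFC arrays. Their mean was as low on 4 other arrays: HFC at Day 6 (-0.77) and Day 10 (-0.79), where the 8 genes were high, and HFC at Day 1 (-0.71) and HF75 at Week 3 (-0.76), where the averages of the 8 genes were -0.07 and -0.95. HFC at Day 1 and HF75 at Week 3 had the highest skeletal muscle means, 6.17 and 7.42. That mean was 4.33 in LFC at Day 6 and 0.71 at Week 12, against an LFC median of -0.40. The brown and beige fat mean was 3.43 in LFC at Day 6 and 2.23 at Week 12, against an LFC median of 0.14. It was 3.07 in HFC at Day 6 and 2.34 at Day 10 (HFC median -1.39), and highest, at 3.63, in HF20 at Week 12. The fatty acid synthesis list was highest in LFC at Day 6 (5.78) and Week 12 (5.74), and the mature adipocyte list had means of 5.78 and 5.54 there. Adipocyte means as high were found both where the 8 genes were high, in HFC at Day 10 (5.78), Day 6 (5.60) and Week 3 (5.48), and where they were not, in HF75 at Week 18 (5.61), HFC at Week 6 (5.56) and HF20 at Week 12 (5.55), with averages of the 8 genes of -0.23, 0.08 and -0.66. The mean of the liver list, 5 of whose genes are on the array, was 3.58 in HFC at Day 14 and -2.18 in HFC at Week 3, against a median of -5.11 over the HFC arrays. It was also high in LFC at Week 18 (-0.30) and HF20 at Week 15 (-2.08), where the averages of the 8 genes were -0.34 and -0.31. Over 12147 genes well above background on all arrays, the centred profiles of LFC Day 6 and LFC Week 12 correlated at r = 0.827. That ranked 4 of 741 pairs of arrays, although the arrays were labelled as different time points. HFC Day 1 and HF75 Week 3, which differ in both diet and time point, correlated at r = 0.841 (rank 2). The part of these differences in the levels of the 8 genes was not tested. In whole tissue, fewer cells of a type and less RNA per cell cannot be told apart.

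**Figure D2:**
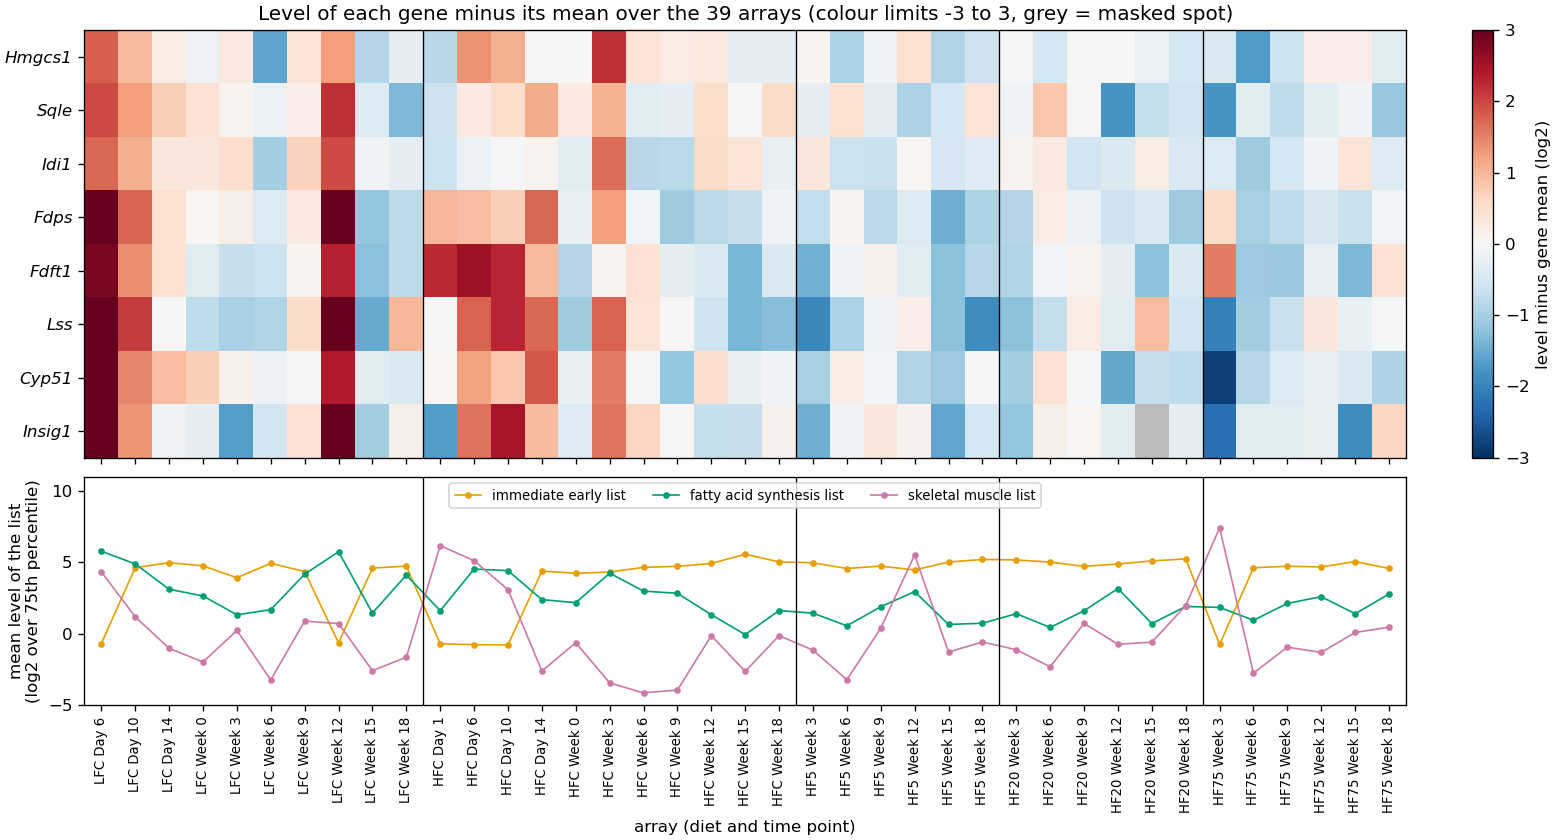
Top, level of each gene minus its mean over arrays (log2, colour) on the 39 arrays (columns, grouped by diet). Bottom, mean level of the immediate early, fatty acid synthesis and skeletal muscle lists on the same arrays. The darkest red columns are LFC Day 6 and LFC Week 12, where the immediate early list is at -0.70 and -0.65.

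The comparison of HFC with LFC asks what the high-fat diet changed. Over the 10 shared time points, 2 of the 8 genes were higher in HFC and 6 lower, with a median difference of -0.26, against -0.04 over all 19876 genes tested. The fitted difference was 0.29 ± 0.29 (SE) for Hmgcs1, -0.48 ± 0.30 for Idi1, -0.54 ± 0.49 for Fdps and -0.13 ± 0.33 for Sqle. It was -0.03 ± 0.33 for Fdft1, -0.41 ± 0.61 for Lss, -0.39 ± 0.35 for Cyp51 and 0.06 ± 0.56 for Insig1. With limma and the time point as a block, 0 of the 8 genes had an adjusted p under 0.05, where 0% of all genes did, and 0 had an unadjusted p under 0.05, where 5.86% did. The smallest adjusted p of the 8 was 0.807. In the same comparison 8 of 8 macrophage markers were higher in HFC (median 0.94, 5 with an unadjusted p under 0.05), 7 of 7 lymphocyte markers tested were lower (median -1.20) and 9 of 10 skeletal muscle genes were lower (median -0.57). The 5 brown and beige fat genes tested (median -0.84) and the 3 red blood cell genes tested (median -0.57) were lower too, and the 3 liver genes tested were higher (median 0.56). Their part in the levels of the 8 genes was not tested.

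The direction of this comparison turned with the time point. At Day 6 all 8 genes were lower in HFC (median -1.82), and at Week 12 all 8 were lower by a median of -2.32, led by Lss at -4.27, Insig1 at -4.14 and Fdps at -3.95. At Week 9 all 8 were also lower (median -0.49). At Week 3 all 8 were higher in HFC (median 1.28), led by Insig1 at 3.26 and Lss at 2.75. The mature adipocyte mean was also higher in HFC at Week 3 (5.48 against 3.26 in LFC) and lower in HFC at Week 12 (3.58 against 5.54). At Day 6 it was 5.60 against 5.78, and at Week 9 it was 5.35 against 4.96. The lymphocyte mean was -4.19 in HFC and 2.16 in LFC at Week 3, and -3.77 and -3.64 at Week 12. The brown and beige fat mean was 0.84 in HFC and -0.95 in LFC at Week 3, and -1.99 and 2.23 at Week 12. The part of the 3 lists was not tested. Over all genes, the median difference lay between -0.14 and 0.14 at each time point. Day 6 and Week 12 are the time points at which LFC and HFC were scanned on different days, so for those differences scan day and diet cannot be told apart. Without both time points the median over the 8 genes was 0.30, with Sqle at 0.26, Fdps at 0.15, Fdft1 at 0.33, Lss at 0.37, Cyp51 at 0.03 and Idi1 at -0.19, and with the scan day as the block the values were the same. Leaving out Week 12 alone gave a median of 0.03.

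The difference between HFC and LFC was also set against time. The late (Week 3 to Week 18) minus early (Day 6 to Week 0) difference had a median of 0.39 over the 8 genes, with 5 higher and 3 lower, against -0.01 over all genes. It ranged from -0.33 ± 0.70 for Fdft1 to 0.80 ± 0.59 for Idi1. By limma, 0 of 8 had an adjusted p under 0.05 (0% of all genes) and 0 an unadjusted p under 0.05 (1.89% of all genes). In the same comparison 8 of 8 immediate early genes were higher (median 2.93, 4 with an unadjusted p under 0.05), 10 of 10 skeletal muscle genes were lower (median -2.13) and 7 of 7 lymphocyte markers tested were lower (median -1.51). So were 3 of 3 liver genes tested (median -2.93), 7 of 8 mature adipocyte markers (median -0.39) and 6 of 8 macrophage markers (median -0.58). The part of these lists was not tested. With normexp background correction the median over the 8 genes was 0.06. Without Day 6 the median was -0.19 and without Week 12 it was 0.91.

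When only the late time points were used, with all 5 diets fitted at once, HFC against LFC had a median of -0.16 over the 8 genes, with 3 higher and 5 lower, against -0.06 over 21092 genes. Hmgcs1 was at 0.56 ± 0.34 and Lss at -0.48 ± 0.64, the extremes of the set. The second Hmgcs1 probe was at 0.12 ± 0.38 and the second Lss probe at -0.27 ± 0.58. By limma, 0 of 8 passed an adjusted p of 0.05 (0% of all genes), and 0 an unadjusted one (5.06% of all genes). The median was 0.32 without Week 12, -0.46 without Week 3 and 0.16 with array quality weights. In that comparison 10 of 10 skeletal muscle genes (median -1.44), 8 of 8 lymphocyte markers (median -1.64) and 6 of 6 brown and beige fat genes (median -1.12) were lower, and 8 of 8 immediate early genes (median 1.19) and 8 of 8 macrophage markers (median 0.62) were higher. Their part was not tested.

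KAL-1 was given on top of the high-fat diet, so its doses were compared with HFC over the 6 time points of Week 3 to Week 18. With HF5 all 8 genes had lower means than with HFC, by a median of -0.51 against 0.00 over all genes, from -0.31 ± 0.47 for Fdft1 to -0.81 ± 0.64 for Lss. With HF20 all 8 were lower, by a median of -0.46 against 0.05 over all genes, from -0.12 ± 0.64 for Lss to -0.69 ± 0.51 for Cyp51 and -0.69 ± 0.59 for Insig1. With HF75, 7 were lower and Fdft1 was at 0.03 ± 0.47, with a median of -0.68 against 0.00 over all genes. These comparisons share the HFC arrays, so their signs are not independent. The ranges of KAL-1 and HFC levels overlapped for all 8 genes at each dose.

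The differences of single genes were within or near the spread over time points. With limma, 0 of the 8 genes had an adjusted p under 0.05 at HF5, at HF20 or at HF75, as for 0% of all genes at each dose. At an unadjusted p under 0.05, HF5 had 1 gene, Hmgcs1, at -0.77 ± 0.34 (95% interval -1.48 to -0.06), where 1.36% of all genes passed. HF20 had 0 of 8, where 4.22% of all genes passed, and Hmgcs1 was at -0.64 ± 0.34. HF75 had 2, Hmgcs1 at -0.89 ± 0.34 (interval -1.60 to -0.18) and Sqle at -0.99 ± 0.47 (interval -1.97 to -0.01), where 5.02% passed. Each error draws on the spread shared by all diets of the fit. Over the 6 time points, HF75 minus HFC had a standard deviation of 1.24 for Hmgcs1 and 1.08 for Sqle. These unadjusted calls depended on the processing. The 1 at HF5 became 0 with normexp background correction, without the time point block and with slides as a random block, and the 2 at HF75 became 0 with array quality weights and 1 with normexp, with quantile normalization and without the HF20 array of Week 15. Sqle was lower in HF75 than in HFC at 6 of 6 time points, by between -0.03 and -2.82, and Hmgcs1 at 5 of 6. The smallest adjusted p over the 8 genes was 0.866 at HF75 and 0.997 at HF20. With normexp background correction, Hmgcs1 passed at HF20 (-1.24, limma adjusted p 0.0179), but so did 38.3% of all genes, and Fdft1, Lss, Cyp51 and Insig1 turned to positive values there. That correction moved the median over the 8 genes to -0.07 at HF20 and -0.19 at HF75, against medians of 0.36 and 0.21 over all genes.

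The 3 doses together were below HFC by a median of -0.58 over the 8 genes, against 0.02 over all genes, and all 8 had a negative value. Hmgcs1 was at -0.77 ± 0.28 (95% interval -1.35 to -0.19), Sqle at -0.69 ± 0.39, Cyp51 at -0.76 ± 0.41 and Insig1 at -0.76 ± 0.46. By limma, 0 of 8 passed an adjusted p of 0.05, where 0% of all genes did, and 1 of 8, Hmgcs1, passed an unadjusted p of 0.05, where 4.48% of all genes did. That count was 2 with the scan day as the block, 2 with array quality weights and 3 with slides as a random block. The share of all genes at that p in these refits is not given here. The 95% interval of Cyp51 ran from -1.61 to 0.09. The dimmest of the 3 Cyp51 probes, well above background on 33 arrays, was at -0.09 ± 0.33 in this comparison and at -0.17 ± 0.41 at HF75, where the probe used was at -1.03 and the other at -0.87. The second Lss probe was at 0.05 ± 0.58 at HF75, against -0.44 for the probe used. The second Hmgcs1 probe was at -0.61 ± 0.31 with the doses together (limma unadjusted p 0.060) and -0.69 ± 0.38 at HF5 (0.081). Both calls of Hmgcs1 were thus lost on that probe. It was at -0.85 ± 0.38 at HF75 (0.033) and at -0.28 ± 0.38 at HF20. With normexp background correction the median over the 8 genes was -0.22, against 0.19 over all genes. Markers of other cell types differed as well: with the doses together, 10 of 10 skeletal muscle genes were higher than in HFC (median 2.21, 4 with an unadjusted p under 0.05), 8 of 8 macrophage markers were lower (median -0.73, 4 with an unadjusted p under 0.05) and 8 of 8 lymphocyte markers were higher (median 0.92). All 6 brown and beige fat genes were higher (median 0.71 with the doses together and 1.23 at HF75, 1 with an unadjusted p under 0.05 in each). Of the immediate early genes, 7 of 8 were lower with the doses together (median -0.32) and 8 of 8 at HF75 (median -0.90). The muscle genes were higher at each dose, with medians of 2.03 at HF5, 1.85 at HF20 and 2.74 at HF75, and the part of these lists in the levels of the 8 genes was not tested.

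The Week 3 arrays carried much of these differences. At Week 3, all 8 genes were lower in HF5 than in HFC (median -2.05) and all 8 in HF20 (median -2.19), and 7 of 8 were lower in HF75 (median -2.74). The exception was Fdft1 in HF75, at 1.44 above HFC. At Weeks 6 to 18 the medians over the 8 genes lay between -0.70 and 0.19 for HF5, between -0.32 and 0.26 for HF20 and between -0.95 and 0.04 for HF75. HF20 and HF75 at Week 6, and HF5 and HF20 at Week 12, were not scanned on the same day as HFC. For those differences, scan day and dose cannot be told apart. Other lists differed between the Week 3 arrays as well. The mature adipocyte mean was 5.48 in HFC, 3.61 in HF5, 3.78 in HF20 and 3.28 in HF75, and the adipocyte marker Plin1, which coats lipid droplets, was at 6.06, 1.85, 1.57 and 1.78 in the same order. The skeletal muscle mean was -3.46 in HFC, -1.16 in HF5, -1.13 in HF20 and 7.42 in HF75. The part of both lists in the differences was not tested. Without Week 3 the median was -0.23 for HF5, -0.14 for HF20, -0.28 for HF75 and -0.20 for the doses together, Lss turned to 0.46 in HF20, 0.23 in HF75 and 0.15 in the doses together, Fdps to 0.14 and Fdft1 to 0.03 in HF20 and Fdft1 to -0.26 in HF75, and the number of genes with an unadjusted p under 0.05 was 0 in each. Hmgcs1 was then at -0.45 for the doses together. Arrays on both sides contributed: without only the HFC array of Week 3 the median for the doses together was -0.18, and without only the 3 KAL-1 arrays of Week 3 it was -0.36, with 0 genes at an unadjusted p under 0.05 in both. Leaving out Week 12 instead raised that number to 2 at HF5, 4 at HF75 and 2 for the doses together, leaving out Week 9 raised it to 2 for the doses together, and leaving out Week 15 raised it to 1 at HF20. It was 0 at HF5 without Week 6, and 1 at HF75 without Week 6 or without Week 18. None of these gave an adjusted p under 0.05. The share of all genes at an unadjusted p under 0.05 in these refits is not given here, so these counts cannot be set against it.

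**Figure D3:**
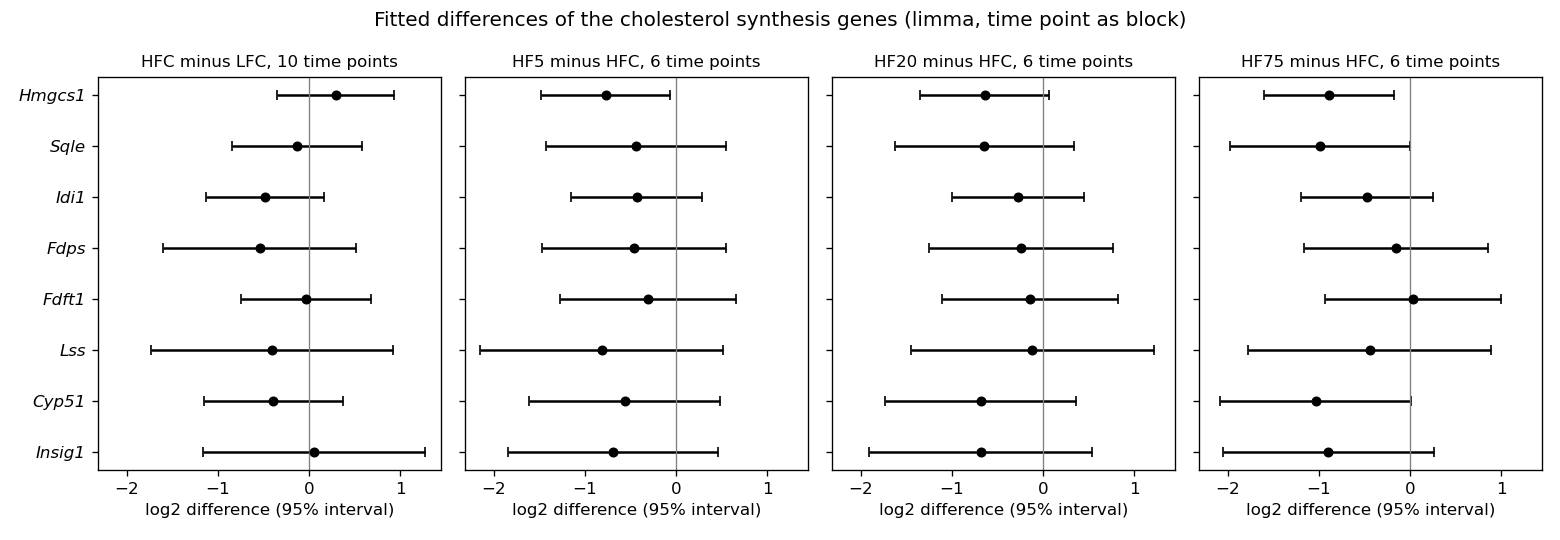
Fitted log2 difference (horizontal axis) of each of the 8 genes with its 95% interval, for HFC minus LFC and for each KAL-1 dose minus HFC. Most intervals include 0, and the intervals that do not are those of Hmgcs1 at HF5 and HF75 and of Sqle at HF75.

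The change per week from Week 3 to Week 18 was fitted over 30 arrays with the diets as covariates. Its median over the 8 genes was -0.0150 per week, with 2 positive and 6 negative values, against 0.00588 over all genes, and it ranged from -0.04 ± 0.03 for Fdps to 0.02 ± 0.04 for Insig1. By limma, 0 of 8 had an adjusted p under 0.05, where 20 genes (0.0948%) did, and 0 of 8 had an unadjusted p under 0.05, where 15.5% of all genes did. Without the HFC array of Week 3 the median over the 8 genes was 0.00414. The count of the 8 at an unadjusted p under 0.05 was 1 with array quality weights and at most 1 with a time point left out. The share of all genes in these refits is not given here. In the main fit 8 of 8 immediate early genes had positive values (median 0.063) and 7 of 8 lymphocyte markers negative ones (median -0.056). Their part was not tested.

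The levels of the 8 genes went together from array to array. Pearson's r over the arrays was positive for all 28 pairs, with a median of 0.67, from 0.32 for Idi1 and Fdft1 to 0.89 for Sqle and Cyp51. Spearman's rho had a median of 0.54 and was between 0.08 for Idi1 and Fdft1 and 0.84 for Sqle and Cyp51. By permutation with adjustment over the 28 pairs, all 28 had an adjusted p under 0.05 for r (largest 0.0463) and 24 for rho (largest 0.633), 1e-05 being the smallest p that the permutations can give. Without LFC Day 6 and LFC Week 12 the median r was 0.49. Without the 2 arrays farthest from the median of the first gene of a pair, the median r was 0.51, and r for Idi1 and Fdft1 was 0.02 while that of Sqle and Cyp51 was 0.85. Within time points, after removal of each time point's mean, r had a median of 0.66 and ranged from 0.21 for Sqle and Fdft1 to 0.89 for Sqle and Cyp51. All pairs share the same arrays and their scaling.

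Pairs differed in how far they kept together. Without LFC Day 6 and LFC Week 12, Sqle and Cyp51, which both act on squalene or its cyclised product, stayed at r = 0.85, Lss and Insig1 at 0.80 and Fdps and Fdft1 at 0.77. The lowest values were 0.02 for Idi1 and Fdft1, 0.17 for Sqle and Fdft1 and 0.20 for Idi1 and Insig1. On HFC at Day 1 and HF75 at Week 3, Fdft1 was at 1.68 and 0.99 while Insig1 was at -3.28 and -3.85. The 6 highest Fdft1 levels were those of the 6 arrays with low immediate early means: LFC at Day 6 (2.26) and Week 12 (1.76), HFC at Day 6 (2.0), Day 10 (1.74) and Day 1, and HF75 at Week 3.

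**Figure D4:**
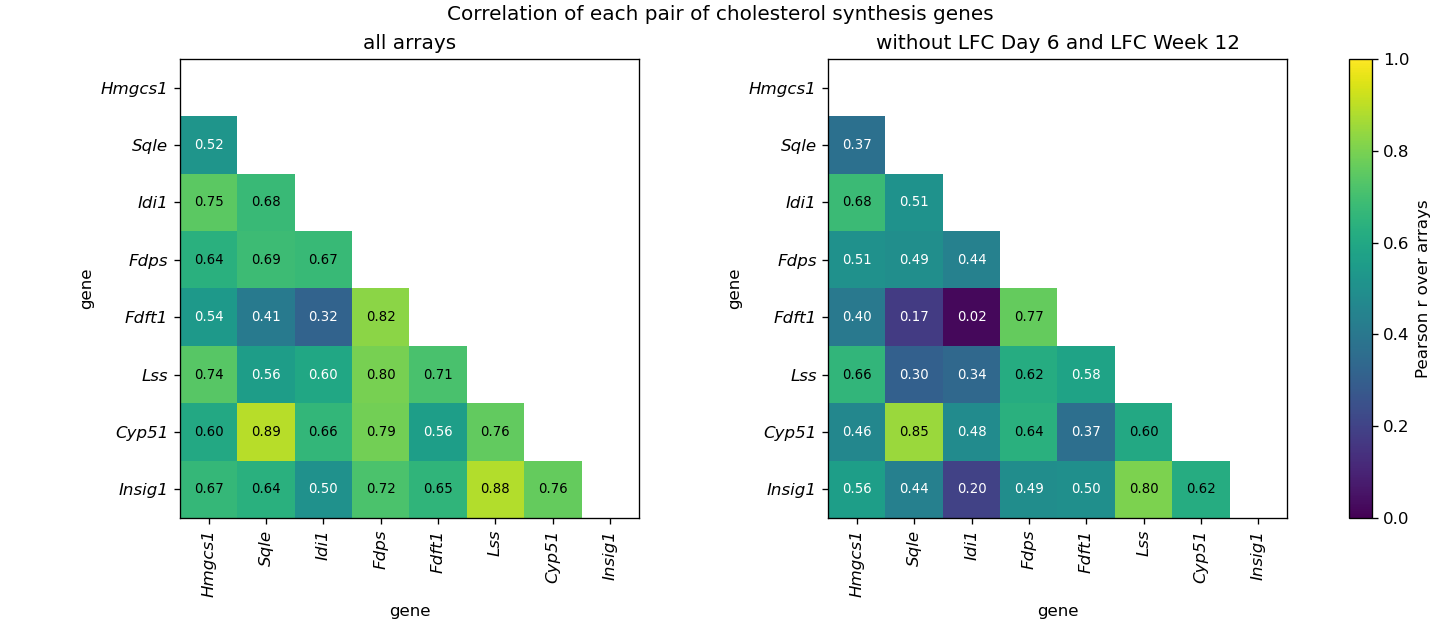
Pearson r over arrays (colour and printed value) for each pair of the 8 genes, over all arrays (left) and without LFC Day 6 and LFC Week 12 (right). The pair Sqle and Cyp51 reads 0.89 and 0.85, and Idi1 and Fdft1 reads 0.32 and 0.02.

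Genes outside the set were ranked by r to the average of the 8 centred levels, over 19172 genes well above background on at least 20 arrays, as a description with no test. The 10 with the highest r were LOC676827 (0.92, 38 arrays), Pgd (0.91), Gm8163 (0.90), Acaca (0.88), Tlcd1 (0.88), LOC634846 (0.88), LOC674674 (0.86), Slc25a1 (0.86), Pmvk (0.86, 38 arrays) and Acss2 (0.86). Of these, LOC676827, Gm8163, LOC634846 and LOC674674 are annotated on the array as similar to farnesyl diphosphate synthase, so their probes and that of Fdps may detect each other's transcripts and are uncertain. Pgd makes NADPH in the pentose phosphate path, Acaca makes malonyl-CoA, Slc25a1 exports citrate from mitochondria, Acss2 makes acetyl-CoA from acetate and Pmvk phosphorylates mevalonate phosphate. Without LFC Day 6 and LFC Week 12, these 10 had r between 0.69 and 0.84.

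The other enzymes of the pathway mostly followed. Over 14 further synthesis enzymes the median r to the average was 0.73, against -0.01 over all genes ranked. Sc5d (0.85), Tm7sf2 (0.82) and Dhcr7 (0.80), which act on late sterols, were close to the set. Further from it were Hsd17b7 at 0.33, Ebp at 0.39 and the nuclear envelope sterol reductase Lbr at -0.55. Over 8 fatty acid synthesis genes the median r was 0.69, with Acaca and Elovl6 (0.84) highest and Fasn lowest at 0.38.

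The regulators and transport genes followed less. Over 6 SREBP control genes the median r was 0.09. Srebf1 was highest at r = 0.69 and Mbtps2 lowest at -0.52, with Srebf2, which codes for SREBP-2, at 0.12. Srebf1 had its level at 6.21 in LFC at Day 6 and 5.87 in LFC at Week 12. Over 9 uptake and transport genes the median r was 0.10, with Npc2, a lysosomal cholesterol carrier, highest at 0.63. Over 9 efflux and storage genes it was -0.06, with Ch25h lowest at -0.52.

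**Figure D5:**
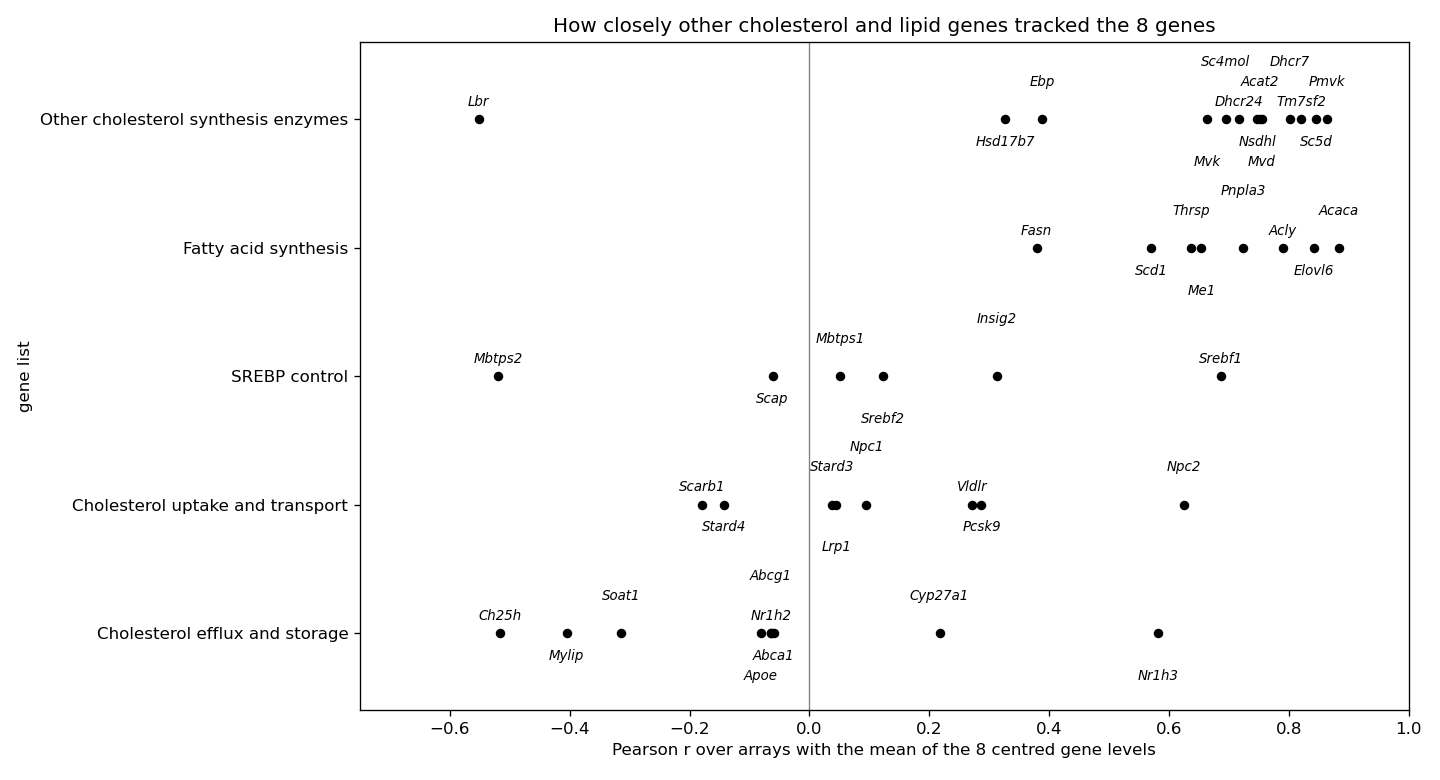
Pearson r over arrays (horizontal axis) between genes of 5 lists (rows) and the average of the 8 centred levels, with 1 point per gene and not every listed gene drawn. Most further synthesis enzymes lie between 0.66 and 0.86, with Hsd17b7, Ebp and Lbr lower, while uptake genes sit nearer to 0.

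The diet comparisons of these lists were read in the same way. By limma, 0 genes of the 5 lists had an adjusted p under 0.05 in any of the 8 comparisons. In HFC against LFC over 10 time points, where 5.86% of all genes had an unadjusted p under 0.05 and 45.3% were higher, 13 of 14 further synthesis enzymes were lower (median -0.24), and 1, Mvd at -0.80 ± 0.30, had an unadjusted p under 0.05. Of the fatty acid synthesis genes 7 of 8 were lower (median -0.82), 2 with an unadjusted p under 0.05, Acly at -1.47 ± 0.57 and Elovl6 at -1.99 ± 0.62. In the same comparison 7 of 9 uptake and transport genes were higher (median 0.08), 2 with an unadjusted p under 0.05, Npc1 at 0.70 ± 0.21 and Lrp1 at 0.86 ± 0.36. Of the efflux and storage genes 8 of 10 were higher (median 0.24), 1 with an unadjusted p under 0.05, Cyp27a1 at 1.27 ± 0.42, and 6 of 6 SREBP control genes were higher (median 0.11), with 0 at that p.

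With the KAL-1 doses together, where 4.48% of all genes had an unadjusted p under 0.05 and 52.6% were higher, 12 of 14 further enzymes were lower than in HFC (median -0.16), 1 of them, Nsdhl at -0.87 ± 0.40, with an unadjusted p under 0.05. Of the fatty acid synthesis genes 8 of 8 were lower (median -0.44), with 0 at that p. Of the uptake and transport genes 7 of 9 were lower (median -0.29), with 1, Npc2 at -0.70 ± 0.30, at that p. Of the efflux and storage genes 9 of 10 were lower (median -0.34), with 1, Abca1 at -0.62 ± 0.26, at that p, and 4 of 6 SREBP control genes were lower (median -0.14), with 0 at that p.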

How the data were processed

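Total RNA of mouse subcutaneous adipose tissue was hybridised to 1-colour Agilent arrays. Per the file headers, the authors' array files hold background-subtracted spot intensity values from Agilent Feature Extraction 10.5.1.1. The files of Week 9 hold rounded values. A deposited table of log2 ratios to LFC was used only to check labels. The log2 intensity of each spot minus the log2 75th percentile of the array was used, outlier spots were left out, and the brightest probe stood for a gene. Genes well above background on at least 10 of 20 or 6 of 30 arrays were tested.

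Diets were compared with limma 3.58.1 in R 4.3.3, time point as block, two-sided, with Benjamini-Hochberg adjustment over all genes. Errors are SE. The fits were tested on simulated data, and the number of arrays limits the precision. Correlations were tested with 100000 permutations. Likeness used genes well above background on at least 20 arrays. Outside the gene lists, the 10 genes most like the average of the 8 were named. Alternatives were the background correction, normalization, filter, probe choice, outlier spots, moderation, block, array weights and each time point left out. The genes, gene lists and naming rule were chosen with earlier results of these data known. Promoters are from RefSeq (GRCm38). P-values measure the spread between these arrays, which may be technical in part. Some single genes of the lists are not reported here.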

Additional observations from a re-analysis of the deposited data

Results flagged for a closer look

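Of 32 groups of 1 gene in 1 diet with 4 to 10 arrays, 1 held an array far from the others. Cyp51 in HF75 was at -5.76 at Week 3, and the gap to the nearest array took a share of 0.73 of the range of the 6 arrays, above Dixon's 95% critical value, which chance passes in about 1 in 20 groups. Cyp51 was not well above background on that array. The mean skeletal muscle level was 7.42 there, the highest of the 39 arrays, and its part in the Cyp51 level was not tested.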

How the results depend on the processing

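The limma tests gave no gene of the 8 an adjusted p under 0.05, and this held in every alternative except normexp background correction, where 1 gene, Hmgcs1 at -1.24 with adjusted p 0.0179, passed in HF20 together with 38.3% of all genes. That correction moved the median of all genes to 0.36 in HF20, 0.21 in HF75, 0.19 for the doses together and -0.22 in late HFC against LFC. The number of all genes called for the change per week was 20, and lay between 1 and 421 in the alternatives. Of 824 gene values over 15 alternatives, 66 changed sign. With normexp background correction, the sign turned for Insig1 to -0.26 in HFC against LFC over 10 time points, for Sqle to -0.0722 and Insig1 to -0.41 in late HFC against LFC, for Fdft1 to 0.076, Lss to 1.01, Cyp51 to 0.71 and Insig1 to 0.18 in HF20, for Lss to 0.33 and Cyp51 to 0.0423 in HF75, for Fdft1 to 0.046, Lss to 0.34 and Cyp51 to 0.17 in the doses together, for Lss to -0.00735 in the change per week. With the mean of all probes, the sign turned for Fdft1 to 0.0421 and Insig1 to -0.0248 in HFC against LFC over 10 time points, for Insig1 to 0.0758 in late minus early, for Fdft1 to 0.0589 in HF5, for Fdft1 to -0.0526 in HF75, for Fdft1 to 0.0108 and Lss to -0.00863 in the change per week. With the scan day as the block, the sign turned for Sqle to 0.26, Fdps to 0.15, Fdft1 to 0.33, Lss to 0.37 and Cyp51 to 0.0271 in HFC against LFC over 10 time points, for Fdft1 to 0.0494 and Insig1 to 0.16 in late minus early, for Fdft1 to 0.0419 in late HFC against LFC, for Idi1 to 0.00293, Lss to -0.0615 and Insig1 to -0.00948 in the change per week. With array quality weights, the sign turned for Fdft1 to 0.35, Lss to 0.53 and Insig1 to 0.54 in late minus early, for Idi1 to 0.12, Fdft1 to 0.057 and Cyp51 to 0.20 in late HFC against LFC, for Fdft1 to 0.0545 and Lss to 0.14 in HF20, for Fdft1 to -0.46 in HF75, for Lss to -0.022 and Insig1 to -0.0227 in the change per week. With slides as a random block instead of time points, the sign turned for Idi1 to 0.0243 and Insig1 to -0.00851 in late HFC against LFC, for Cyp51 to 0.000278 in the change per week. Without the HFC array of Week 3, the sign turned for Sqle to -0.0441 and Insig1 to -0.50 in late HFC against LFC, for Fdps to 0.0336 and Lss to 0.50 in HF20, for Fdps to 0.12 and Lss to 0.18 in HF75, for Lss to 0.16 in the doses together, for Idi1 to 0.00975 and Cyp51 to 0.0163 in the change per week. Without the KAL-1 arrays of Week 3, the sign turned for Lss to 0.14 in HF20, for Fdft1 to -0.35 in HF75, for Idi1 to 0.00058, Lss to -0.0234 and Insig1 to -0.0219 in the change per week. Leaving out Day 6 and Week 12, an alternative chosen after seeing the data, gave the values of the scan-day block in both fits of HFC and LFC. Exchanging the Week 12 arrays of HF5 and HF20 and leaving out the HF20 array of Week 15, turned no sign. These and the fits without Week 3 arrays were also chosen after seeing the data. The cause was not tested. The median r over the 28 pairs was 0.51 without the 2 farthest arrays and 0.49 without the 2 highest.

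Of 448 values with 1 time point left out, 51 changed sign. When each time point was left out in turn, genes whose sign turned ranged as follows. In HFC against LFC over 10 time points, the value ran for Sqle from -0.35 to 0.0439, Fdft1 from -0.16 to 0.27, Lss from -0.76 to 0.0223 and Insig1 from -0.30 to 0.52. In late minus early, the value ran for Fdps from -0.44 to 0.92, Fdft1 from -0.58 to 0.19, Lss from -1.0 to 0.59 and Insig1 from -0.71 to 0.78. In late HFC against LFC, the value ran for Sqle from -0.18 to 0.52, Idi1 from -0.43 to 0.10, Fdps from -0.76 to 0.25, Fdft1 from -0.42 to 0.35, Lss from -1.12 to 0.28, Cyp51 from -0.48 to 0.17 and Insig1 from -0.61 to 0.87. In HF20, the value ran for Fdps from -0.47 to 0.14, Fdft1 from -0.25 to 0.0284 and Lss from -0.60 to 0.46. In HF75, the value ran for Fdft1 from -0.26 to 0.34 and Lss from -0.78 to 0.23. In the doses together, the value ran for Fdft1 from -0.20 to 0.00266 and Lss from -0.79 to 0.15. In the change per week, the value ran for Hmgcs1 from -0.0546 to 0.0174, Idi1 from -0.0342 to 0.036, Fdft1 from -0.0511 to 0.000443, Lss from -0.017 to 0.0559, Cyp51 from -0.032 to 0.00891 and Insig1 from -0.0358 to 0.0592. Arrays of the same time point were paired by the time point block. No paired analysis was possible by replicate number because these numbers follow accession order. The slide block could not be fitted over the 20 arrays of HFC and LFC. Signals not well above background limit the levels of Lss, Cyp51 and Insig1 in HF75 at Week 3 and of Cyp51 in HF20 at Week 12.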
